A study of Mus musculus with 36 samples.

Results

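The cell cycle and replication genes described here are 36 genes chosen by name, of 18760 named rows in the deposited table, and all 36 are present in it. They were divided into 17 genes of DNA replication and the entry into S phase (Ccne1, Ccne2, Cdk2, E2f1, Cdc6, Cdt1, Cdc45, Mcm2 to Mcm7, Pcna, Rrm1, Rrm2 and Tyms) and 19 genes of the G2 phase and mitosis (Mki67, Top2a, Foxm1, Ccna2, Ccnb1, Ccnb2, Cdk1, Cdc20, Aurka, Aurkb, Plk1, Bub1, Bub1b, Kif11, Kif20a, Birc5, Tpx2, Cenpe and Cenpf). Bulk RNA sequencing of 36 libraries gave their messenger RNA levels. The mice were wild-type C57BL/6, alike in age and sex, and carried tumors of MC38, a mouse colon carcinoma line. The libraries came from the tumor and from lung, liver, kidney, heart and skeletal muscle. Immune checkpoint blockade (ICB) was given as high-dose anti-PD1 with anti-CTLA4, antibodies to a pair of inhibitory receptors of T cells. The comparison animals received control IgG, so every animal bore a tumor and none was left without antibody. Each tissue had 3 ICB and 3 IgG libraries. The labels give neither the age, the sex, the dose, the time of collection nor whether each library of a group is its own animal. The p-values here therefore rest on the scatter among these samples, part of which may be technical.

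A cell that divides first licenses its origins of replication in G1, when Cdc6 and Cdt1 load the MCM helicase on DNA, and then fires them in S phase under cyclin E with Cdk2. Mitosis follows under cyclin B with Cdk1, with the Aurora and Polo kinases, the spindle checkpoint and the anaphase-promoting complex in sequence. The replication genes are classical targets of E2F transcription factors at the G1/S boundary, and the mitosis genes are classical targets of the DREAM, MuvB-B-Myb and FoxM1 complexes, which act through the CHR element beside NF-Y sites. Messenger RNA of both groups is abundant in cycling cells and scarce in resting ones, so tumors hold much of it and muscle and heart of an adult hold little.

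The promoters of the replication and mitosis genes differed in the letters they held, and 6 are shown because they carry the elements of each group. RefSeq promoter windows on build GRCm38.p6, from 250 bases before to 50 bases after the start, were matched by symbol for 29 of the 36 members (30 windows, since Mcm7 has a pair of them). The letters TTTGAA (CHR) stood on either strand in 10 of 14 mitosis genes (71.4%) and 2 of 15 replication genes (13.3%), against 20.2% of all 27025 genes of the table. The letters of the E2F site (TTTGGCGC, TTTCCCGC, TTTGCCGC or TTTCGCGC, either strand) stood in 7 of 15 replication genes (46.7%) and 1 of 14 mitosis genes (7.14%), against 2.6% of all genes. CCAAT, the letters of the NF-Y site, stood in 13 of 14 mitosis genes (92.9%) and 10 of 15 replication genes (66.7%), against 41.1% of all genes. TTTGAA and CCAAT stood together in 1 window for 10 of 14 mitosis genes, against 7.97% of all genes. The shorter E2F core (GGCGC or CCCGC) did not tell the groups apart: it stood in 28 of the 29 members and in 55.8% of all genes. A match is a run of letters and not a measured binding site. The 160 bases before the start are printed below 5′ to 3′, with matches of the 3 motifs on either strand in capitals (ATTGG and TTCAAA are CCAAT and TTTGAA on the opposite strand, and E2F matches that overlap run together).
Cdc20, chr4:118437344-118437503, minus strand: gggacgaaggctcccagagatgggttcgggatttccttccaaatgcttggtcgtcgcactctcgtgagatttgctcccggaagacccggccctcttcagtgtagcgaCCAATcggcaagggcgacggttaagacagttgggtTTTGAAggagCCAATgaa
Mki67, chr7:135716380-135716539, minus strand: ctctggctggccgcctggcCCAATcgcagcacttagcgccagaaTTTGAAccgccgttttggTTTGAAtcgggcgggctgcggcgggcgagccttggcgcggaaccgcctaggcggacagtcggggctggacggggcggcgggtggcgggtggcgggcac
Top2a, chr11:99024190-99024349, minus strand: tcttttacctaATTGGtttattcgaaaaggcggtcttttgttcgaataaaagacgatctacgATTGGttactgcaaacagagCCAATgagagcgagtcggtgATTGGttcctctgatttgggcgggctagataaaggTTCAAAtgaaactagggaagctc
Cdk1, chr10:69352913-69353072, minus strand: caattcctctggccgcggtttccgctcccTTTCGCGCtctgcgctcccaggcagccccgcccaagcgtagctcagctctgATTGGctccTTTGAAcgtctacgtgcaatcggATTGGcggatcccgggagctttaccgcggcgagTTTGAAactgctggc
Mcm5, chr8:75109349-75109508, plus strand: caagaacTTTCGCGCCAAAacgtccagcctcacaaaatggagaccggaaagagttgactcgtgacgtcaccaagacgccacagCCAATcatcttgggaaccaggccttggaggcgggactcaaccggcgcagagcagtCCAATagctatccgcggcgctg
Mcm6, chr1:128359706-128359865, minus strand: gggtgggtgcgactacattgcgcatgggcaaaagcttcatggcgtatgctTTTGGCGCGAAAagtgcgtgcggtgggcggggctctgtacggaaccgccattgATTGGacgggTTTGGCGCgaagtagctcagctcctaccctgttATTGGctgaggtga

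Of these, Cdc20, Mki67 and Top2a are mitosis genes with the CHR letters upstream of the start, and Mcm5 and Mcm6 are replication genes with the E2F letters. Counted from the start site, the CHR letters of Cdc20 began at position -18 and a CCAAT at -53. Cdk1 was the mitosis gene that held the E2F letters as well, at -131, with TTTGAA at -71 and -15. In Aurka, Bub1b, Ccnb2, Cenpf and Plk1 a TTTGAA lay within the first 50 bases after the start, and Ccnb2 held a further one at -167.

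Depth was even. Whole reads were recovered from the deposited values for 18781 of 18781 rows and gave 19005189 to 25512980 reads per library. Values are FPKM, fragments scaled to gene length and library size, so that levels of different genes can be set side by side. The organs matched their labels: the summed FPKM of 5 lung epithelium markers was 19910 to 54690 in lung and at most 32.2 elsewhere, and hepatocyte, kidney tubule, cardiomyocyte and skeletal muscle markers were each highest in every library of their own tissue. In the tumor the 6 epithelial markers of a carcinoma (Epcam, Krt8, Krt18, Krt19, Krt20 and Cdh1) summed to only 0.573 to 2.494 FPKM. In bulk tissue fewer cycling cells and less of a transcript per cell cannot be told apart.

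Tumor against organs came first. All members tested stood higher in the tumor than in the mean of the 5 organs: 35 of 35 passed in that direction, against 38.6% of the 16123 genes tested (limma on log2(FPKM + 1), adjusted p under 0.05, called hereafter). Kif11 was not tested because its FPKM did not reach 1. The filter asked for 1 FPKM in at least 3 libraries of 1 tissue. Of the 35, 10 (Ccne1, Cdc6, Foxm1, Ccnb1, Cdk1, Aurkb, Bub1, Kif20a, Birc5 and Cenpe) had fewer than 3 organ libraries at that level. These 10 met it through the tumor. Top2a and Ccna2 did so too, since neither reached 1 FPKM in 3 libraries of any 1 organ. All of these genes had to stand high in tumor, so the count is given as a description. The median difference was 3.55 log2 units over the members, 2.82 over the replication genes and 4.003 over the mitosis genes, against -0.14 over all genes tested. In 35 of 36 members every one of the 6 tumor libraries lay above every one of the 30 organ libraries, which held for 12.4% of all genes. The exception was Cenpf.

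**Figure D1:**
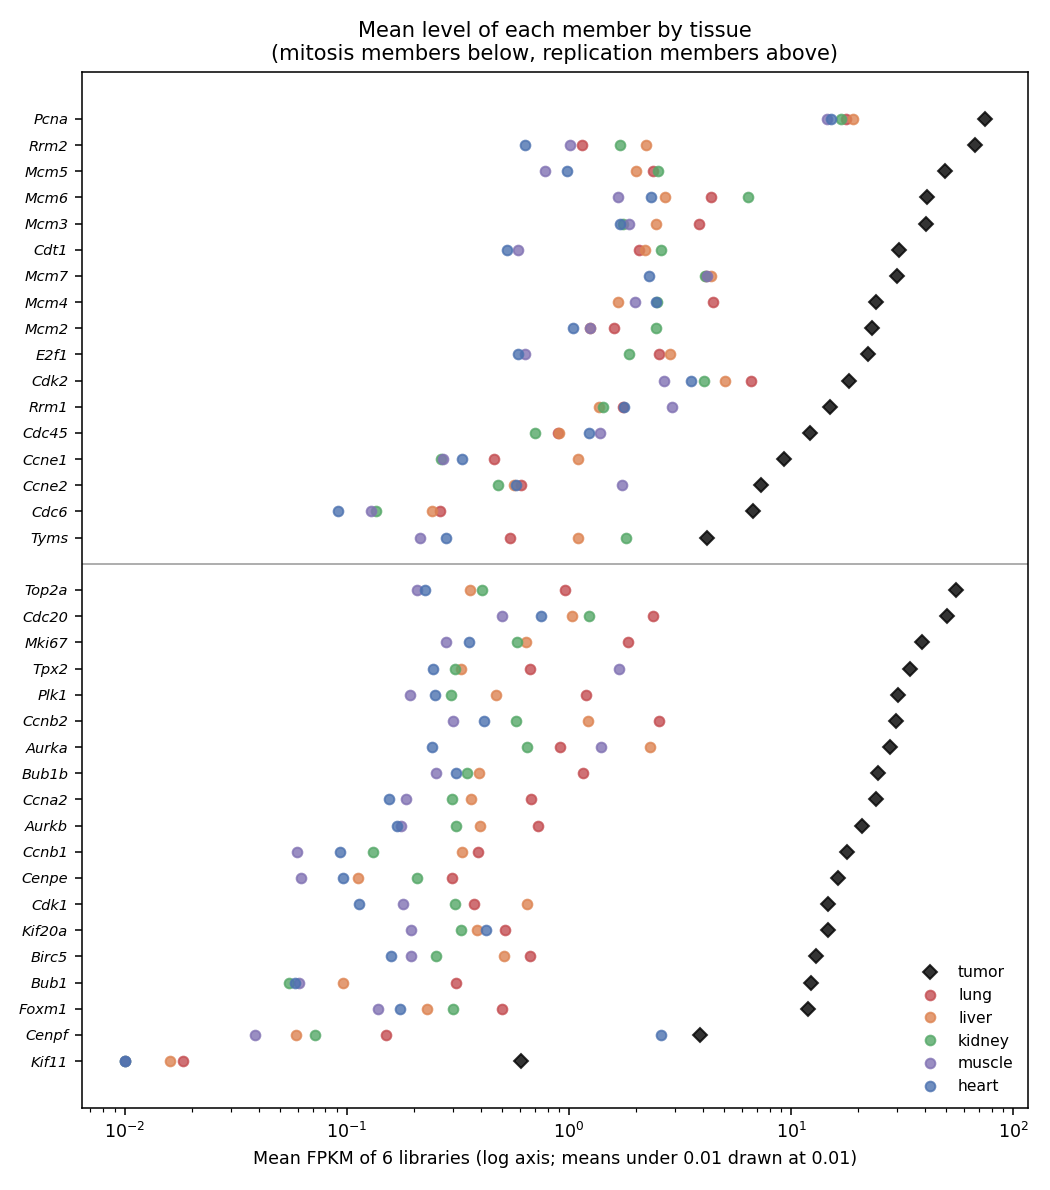
Mean FPKM of each member over the 6 libraries of a tissue, on a log axis, with tumor as black diamonds and the 5 organs as coloured points. Mitosis genes (lower block) show a wide gap between tumor and organs, replication genes (upper block) a narrower one, and the heart point of Cenpf lies beside the tumor.

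Top2a, which encodes the topoisomerase that untangles sister chromatids, had the widest gap of the 36. Its tumor FPKM ran from 45.9 through a median of 56.5 to 64.7, and its organ means were 0.957 in lung, 0.404 in kidney, 0.36 in liver (0.138 without the third liver ICB library, which stood far above the other 5 in most members), 0.224 in heart and 0.206 in muscle. Its tumor mean was 129 times the mean of the organ means (log2 difference 5.34 ± 0.10, SE, adjusted p = 3.01e-27). Since Top2a met the filter through the tumor, this p-value is given as a description. The lowest tumor library stood 27.3 times above the highest organ library, which was the third lung ICB library. Bub1, a kinase of the spindle checkpoint, was at 9.52 to 13.6 FPKM in tumor, 106.5 times the organ mean. Cenpe, the kinetochore motor, was at 10.35 to 20.2 FPKM, 104.9 times the organ mean. Mki67, which encodes the proliferation antigen Ki-67, was at 32.8 to 44.4 FPKM in tumor with a median of 39.8, and its organ means ran from 0.278 in muscle to 1.845 in lung. Over the 19 mitosis genes the tumor level was a median of 52.6 times the organ mean.

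Replication genes had a narrower gap, and it was the organ levels that differed between the groups. The median level per member in tumor was 23.2 FPKM for replication genes and 20.85 for mitosis genes, whereas in lung it was 2.07 against 0.671. Pcna, the sliding clamp of replication and repair, had the highest tumor level of the members at 66.5 to 86.7 FPKM (median 70.2). Its organ means were 14.5 to 18.9 FPKM, in a narrow band from muscle to liver, so its tumor level was 4.49 times the organ mean. Cdk2, the S phase kinase, was at 16.2 to 21.9 FPKM in tumor and 2.67 to 6.57 in the organ means, a ratio of 4.15 and the lowest of the 36. Rrm2, the inducible subunit of ribonucleotide reductase, stood apart from its group at 47.9 to 84.8 FPKM in tumor and 50.1 times the organ mean, while Rrm1, its partner subunit, reached 8.13 times. The median over replication genes was 11.9 times.

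At the low end in tumor were Kif11, the mitotic kinesin Eg5, at 0.42 to 0.968 FPKM, Cenpf, a kinetochore protein, at 3.12 to 4.52, and Tyms, thymidylate synthase, at 2.48 to 5.26. Tyms was the member whose tumor and organ libraries came nearest while still separate, since the lowest tumor library was 1.10 times the highest organ library, which came from kidney. For Kif11 the gene length implied by the FPKM was 4819 bases against 7461 in GENCODE M21, so its values rest on another gene model. The lengths of Cdk1, Cdk2, Cdc45 and Kif20a differed likewise, and the other 31 were the same.

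Among the other genes of the pathway, 33 of 33 further replication genes and 38 of 39 further mitosis genes were called higher in the tumor, with medians of 2.12 and 2.98 log2 units. The mitosis gene that was lower was Pttg1, securin, at -0.98 ± 0.12 (adjusted p = 7.67e-09). Of 18 transcriptional regulators 11 were higher and 5 lower, against 38.6% of all genes higher and 47.4% lower. Mybl2, the B-Myb subunit of the mitotic activator complex, was higher by 4.80 ± 0.06 log2 units and Myc by 2.94 ± 0.15. All 8 G1 cyclins and kinases had a higher mean in tumor and 6 were called, with Ccnd1, cyclin D1, at 1.64 ± 0.22. Of 17 cell cycle inhibitors and p53 targets 7 were higher and 4 lower, to be read against the same shares of all genes. The INK4 gene Cdkn2a was higher by 2.42 ± 0.10, Cdkn1c was lower at -3.15 ± 0.14, and Cdkn1a, which encodes p21, was at 0.48 ± 0.36 (adjusted p = 0.215) and did not pass.

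**Figure D2:**
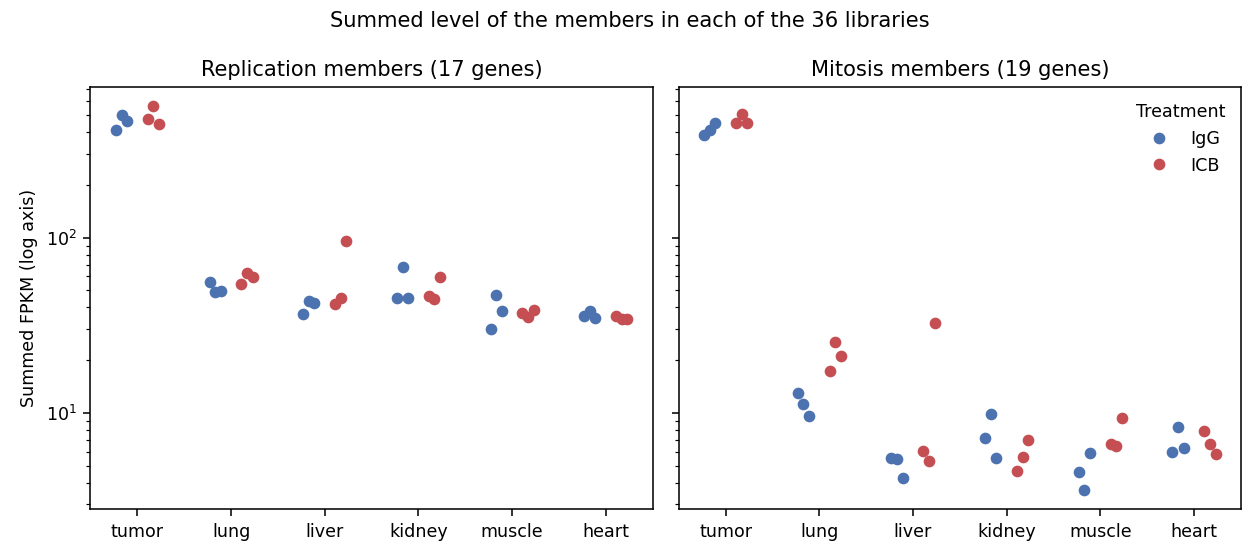
Summed FPKM of the 17 replication members (left) and the 19 mitosis members (right) in each of the 36 libraries, on a log axis, with IgG in blue and ICB in red. The tumor libraries lie near the same height in both panels, the organs lie lower for mitosis, and 1 liver ICB library stands far above the other 5.

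Set against each other within a library, the mitosis genes summed to nearly as much FPKM as the replication genes in the tumor and to a small part of them in the organs. The ratio of the summed mitosis FPKM to the summed replication FPKM was 0.822 to 1.01 in the 6 tumor libraries. It was 0.194 to 0.231 in the lung IgG libraries and 0.318, 0.405 and 0.356 in the lung ICB libraries, which do not overlap. In muscle it was 0.0771 to 0.154 with IgG and 0.178 to 0.243 with ICB, which do not overlap either. It was 0.0999 to 0.16 in kidney and 0.168 to 0.221 in heart, where the groups overlapped. In liver it was 0.1 to 0.152 in 5 libraries and 0.341 in the third ICB library. As a difference of the mean log2(FPKM + 1) of the mitosis and the replication genes, that library was at -1.102. This lay inside the range of the other 5 (-1.169 to -0.98). The added 1 understates the change of low genes, and the mitosis genes were low in liver. As plain ratios to the median of the other 5, its values had a median of 9.74 for mitosis genes and 2.65 for replication genes. By the same difference of mean log2 values the muscle groups overlapped, at -1.182 to -0.888 with IgG and -0.989 to -0.886 with ICB. The lung groups did not, at -1.021 to -0.925 and -0.866 to -0.759. Nor did the heart groups, at -0.927 to -0.889 and -0.84 to -0.802, so separation in muscle and heart depended on the measure. The organ ratios were set in part by Pcna: without Pcna and Top2a the lung ratio was 0.31 in IgG and 0.487 in ICB.

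Among the organs the lung held the most of the mitosis genes. Levels and differences between organs pool the IgG and ICB libraries of each organ. Of the 19, 15 had their highest organ mean in lung, and 14 of the 18 tested were called higher in lung than in the mean of the other 4 organs. Of the replication genes 7 of 17 were called higher in lung. Together 21 of 35 members were higher, against 37.1% of genes, and 2 (Cenpf and Tyms) were lower, against 42.3%. Ccnb2, cyclin B2, had the largest lung difference at 1.15 ± 0.17 log2 units (adjusted p = 6.60e-07), with a mean of 2.55 ± 1.25 FPKM (SD, n = 6) in lung and 0.30 to 1.21 in the other organ means. The 1.21 is the liver mean, which was 0.489 without the third liver ICB library. The lung mean of Ccnb2 was 1.52 FPKM with IgG and 3.58 with ICB. Mki67 followed at 0.96 ± 0.14 (adjusted p = 2.23e-07).

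The other organs each had a few members of their own. Without the third liver ICB library the highest organ mean of E2f1, Mcm7, Pcna, Rrm2 and Cdk1 was no longer in liver, and liver was highest in 2 of 36 members. In kidney 5 members were higher (background 32.7%) and 6 lower (39.7%). The 5 were replication genes, Mcm6, Tyms, Cdt1, Mcm2 and Mcm5, with Mcm6 at a kidney mean of 6.39 FPKM against 4.38 in lung, the next organ. In liver 9 were higher (34.7%) and 6 lower (43.5%). Aurka, the Aurora A kinase of the centrosome, led at 0.91 ± 0.10 log2 units, and its 6 liver libraries ran from 1.51 to 3.60 FPKM. In muscle 5 were higher (31.7%) and 19 lower (46.1%). In heart 1 was higher (28.2%) and 15 were lower (44.9%). Rescaling each library to a common sum of FPKM (the TPM scale) moved the median of all genes from -0.04 to 0.76 in lung and from -0.08 to -0.61 in liver. On that scale the count of members called either way was 25 in liver and 32 in heart, with no share of all genes given beside these counts. The lung median over members was 0.83 there, close to that of all genes. The tumor kept its distance there, with a member median of 4.54 against 0.71 for all genes.

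Cenpf was the 1 mitosis gene with its highest organ mean in heart, and Tpx2 the 1 with its highest in muscle. Cenpf was at 2.16, 2.98 and 3.26 FPKM in the heart IgG libraries and 3.40, 1.71 and 2.03 in the heart ICB libraries. It was at most 0.253 in lung, liver, kidney and muscle libraries, and the heart difference from the other organs was 1.71 ± 0.07 log2 units (adjusted p = 1.50e-19). The other 18 mitosis genes showed no such level in heart: Mki67, Top2a and Bub1 had heart means of 0.355, 0.224 and 0.0583 FPKM. Tpx2, which targets Aurora A to the spindle, was at 2.12, 0.541 and 1.70 FPKM in muscle IgG and 2.38, 1.69 and 1.64 in muscle ICB, with a muscle mean of 1.68 against 0.671 in lung, the next organ. Ccne2, cyclin E2, was at 1.36 to 2.19 FPKM in muscle against organ means of 0.481 to 0.605 elsewhere. The muscle kinase gene Mylk2, at 422 to 743 FPKM in muscle, begins 16030 bases beyond the end of Tpx2 on the same strand of chromosome 2. It was chosen after its values were seen, and whether its reads reach the Tpx2 row was not tested. Cenpf overlaps the annotated gene Gm37239 on the other strand, and the part of that gene in the Cenpf values was not tested.

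ICB against IgG in lung came next. Mitosis genes such as Mki67, Ccnb2 and Top2a had higher values in every ICB lung library than in every IgG lung library, but no single gene passed the test. No member passed over the 12747 genes tested, where 0 genes passed (0%), 555 had an unadjusted p under 0.05, and limma-voom on the recovered reads also called 0. Of the members, 33 of 36 had a higher mean with ICB, and in 22 of 36 all 3 ICB libraries stood above all 3 IgG libraries, against 4.65% of genes. In 0 of 36 all ICB libraries stood below, against 4.22%. The 22 were 14 of the 19 mitosis genes and 8 of the 17 replication genes. The median difference of the members was 0.29 log2 units, against -0.01 for all genes tested, and the ratio of the group means had a median of 2.03 for mitosis genes and 1.31 for replication genes. With groups of 3, the smallest p that exact permutation can give for 1 gene is 0.1. Only 18 members reached the filter of 1 FPKM in 3 libraries, 8 of them with an unadjusted p under 0.05. Of the 18, 7 had fewer than 3 IgG libraries at 1 FPKM and reached the filter with the help of the ICB libraries, and 4 of the 8 were among those, so these counts support nothing. Over the 35 members with a mean of at least 5 reads limma-voom gave 19 with an unadjusted p under 0.05, beside 686 of 17271 genes (3.97%), 0 of them called.

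**Figure D3:**
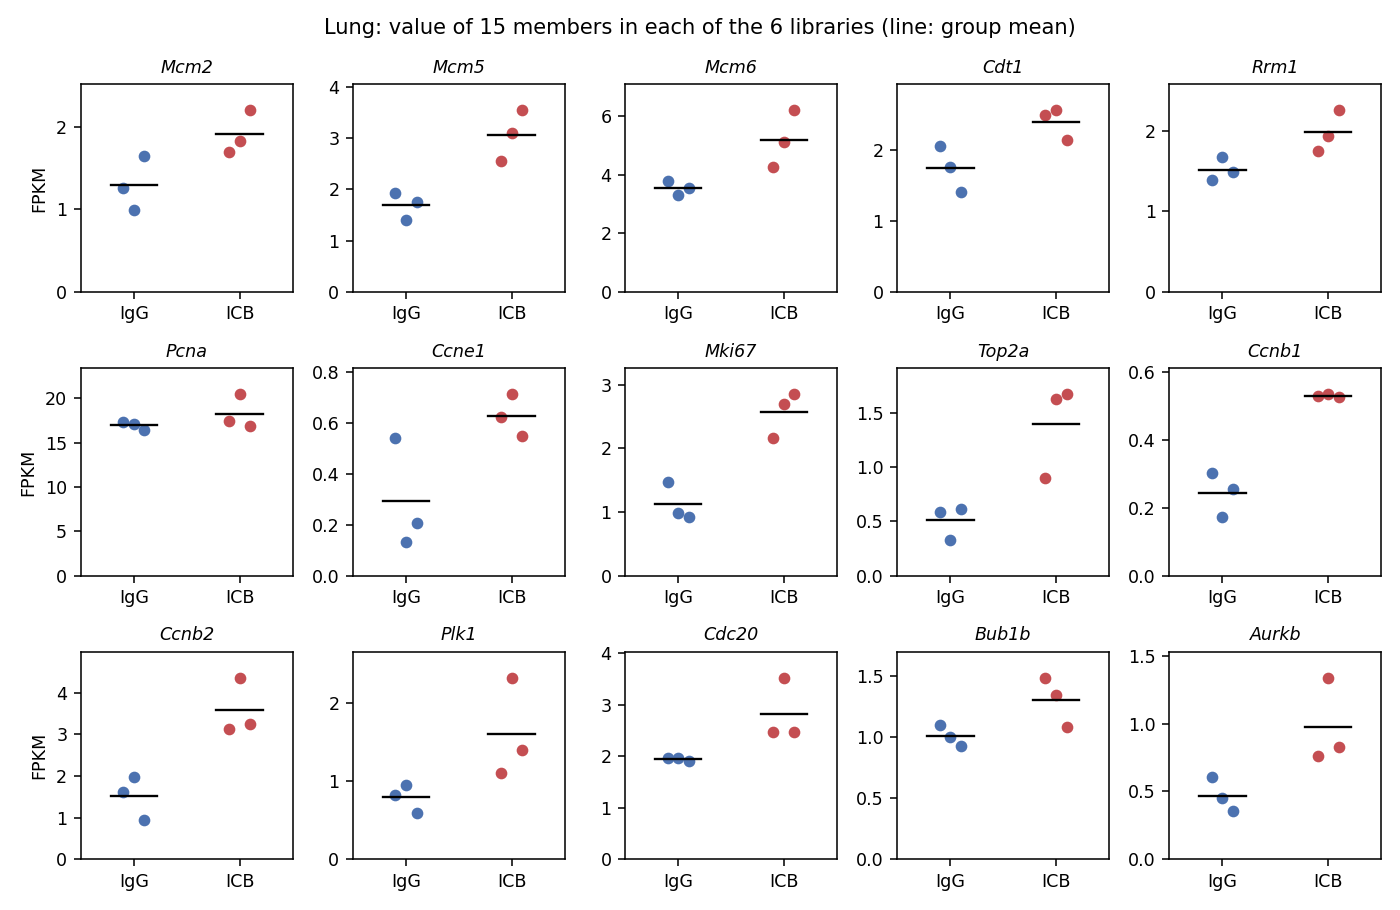
FPKM of 15 members in the 3 IgG (blue) and 3 ICB (red) lung libraries, each panel with its own axis from 0, and a black line at each group mean. The groups do not overlap in 13 panels, and overlap in those of Pcna and Bub1b.

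Mki67 was at 1.47, 0.989 and 0.915 FPKM in the lung IgG libraries and at 2.15, 2.69 and 2.85 in the ICB libraries. Its difference was 0.75 ± 0.15 log2 units with an unadjusted limma p of 0.00113, the smallest of the members, and an adjusted p of 0.898. Ccnb2 was at 1.62, 1.98 and 0.948 with IgG and at 3.14, 4.36 and 3.24 with ICB (0.88 ± 0.19, adjusted p = 0.988). The lowest ICB library of both genes lay clear of the highest IgG library. Plk1, the Polo kinase of mitotic entry, was at 0.823, 0.952 and 0.594 with IgG and at 1.10, 2.32 and 1.40 with ICB (0.52 ± 0.19). Cdc20, the activator of the anaphase-promoting complex, was at 1.97, 1.96 and 1.91 with IgG and at 2.47, 3.53 and 2.48 with ICB (0.36 ± 0.14). The IgG values of Cdc20 were close together, and the second ICB library was the high one for both Plk1 and Cdc20. Bub1b, the checkpoint protein BubR1, overlapped at 1.10, 1.00 and 0.923 with IgG and 1.48, 1.34 and 1.08 with ICB (0.19 ± 0.12).

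Mitosis genes below the filter showed the same order of libraries on read counts. Top2a was at 0.588, 0.329 and 0.615 FPKM with IgG and at 0.905, 1.63 and 1.68 with ICB, a limma-voom difference of 1.45 ± 0.34 log2 units (adjusted p = 0.994). Cenpe was at 0.152, 0.166 and 0.145 with IgG and 0.305, 0.531 and 0.481 with ICB. Ccna2, cyclin A2, was at 0.411, 0.41 and 0.32 with IgG and at 0.636, 1.17 and 1.12 with ICB. In all 3 the first ICB library was the lowest of its group and still above the IgG libraries. Ccnb1, cyclin B1, was at 0.302, 0.174 and 0.255 with IgG and at 0.53, 0.536 and 0.528 with ICB. The overlapping mitosis genes were Cdk1, Aurka, Bub1, Bub1b and Kif11, and Kif11 was at most at 0.0458 FPKM, which was 8 reads.

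Of the replication genes, the helicase subunits split. Mcm5 was at 1.93, 1.41 and 1.75 FPKM with IgG and at 2.56, 3.10 and 3.54 with ICB (0.59 ± 0.14, adjusted p = 0.988). Mcm6 was at 3.80, 3.32 and 3.55 with IgG and at 4.25, 5.13 and 6.20 with ICB (0.43 ± 0.14). Mcm2 was at 1.25, 0.988 and 1.64 against 1.69, 1.83 and 2.20 (0.35 ± 0.15). These 3 did not overlap, while Mcm3, Mcm4 and Mcm7 did, with differences of 0.20, 0.06 and -0.02. Cdt1, the licensing factor, was at 2.06, 1.77 and 1.41 with IgG and 2.50, 2.56 and 2.15 with ICB (0.32 ± 0.13). Rrm1 was at 1.39, 1.67 and 1.49 with IgG and 1.76, 1.94 and 2.26 with ICB (0.24 ± 0.12). Ccne1, Cdc6 and Cdc45 were the other replication genes without overlap. Pcna overlapped at 17.4, 17.1 and 16.4 with IgG and 17.4, 20.5 and 16.9 with ICB, and Ccne2, Cdk2 and Mcm7 had lower ICB means.

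Summed over the 19 mitosis genes, lung held 13.0, 11.2 and 9.59 FPKM with IgG and 17.3, 25.4 and 21.2 with ICB. Over the replication genes the sums overlapped, at 56.1, 49.0 and 49.5 with IgG and 54.5, 62.8 and 59.7 with ICB. Without any single library the median over the members was 0.25 to 0.32 log2 units. On the TPM scale the median of all lung genes moved to 0.16, the member median to 0.37 and the count without overlap to 28. The share of all genes without overlap on that scale is not given here, so the 28 has no background to be read against.

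Other cell types moved with the same libraries in lung. The summed FPKM of 10 macrophage and monocyte markers was 172 to 187 with IgG and 234 to 286 with ICB. Of the 10 genes 5 did not overlap, beside 4.65% of all genes with ICB higher. The 5 lung epithelium markers summed to 33731 to 54688 with IgG and 19910 to 30929 with ICB. Of the 5 genes 2 did not overlap, beside 4.22% of all genes with ICB lower. The 11 T cell markers were higher in mean in 11 of 11, but their sums overlapped, at 20.2 to 51.4 with IgG and 38.2 to 60.5 with ICB. Sums of the 5 cardiomyocyte markers narrowly missed overlap, at 97.3 to 110.1 with IgG and 53.2 to 96.7 with ICB, and 0 of the 5 genes separated. The B and plasma cell markers were higher in mean in 7 of 7 (median 0.54 log2 units) and the erythroid markers lower in 11 of 11 (median -1.165), and the sums of both overlapped. Sums of NK cell, neutrophil and immature myeloid markers overlapped too. The part of any of these cells in the member values was not tested.

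Other genes of the pathway were not called in lung either. Of the 39 further mitosis genes measured, 35 had a higher ICB mean and 17 had all ICB libraries above all IgG libraries, against 4.65% of genes, with a median of 0.16 log2 units. Their summed FPKM overlapped, at 40.2 to 59.05 with IgG and 46.4 to 58.6 with ICB. Racgap1, a regulator of cytokinesis, was at 0.56 ± 0.12 (adjusted p = 0.898), and Incenp and Cenpa at 0.40 ± 0.11 and 0.37 ± 0.12. Of 33 further replication genes 21 were higher, 5 of them without overlap, with a median of 0.08. Tk1 was at 0.13 ± 0.12, Pttg1 at -0.56 ± 0.29, Ccnd1 at 0.24 ± 0.25, Myc at 0.09 ± 0.20 and Cdkn1a at -0.23 ± 0.50. The 8 G1 cyclins and kinases split 4 against 4, and 0 genes of these lists were called.

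ICB against IgG in the tumor had 35 members tested. Again 0 passed, among 11398 genes of which 0 (0%) passed and 783 had an unadjusted p under 0.05, and limma-voom called 0. Of the members 3 had an unadjusted p under 0.05 by limma, beside 6.87% of genes, and 4 by limma-voom, beside 1034 of 16132 genes (6.41%). The mean was higher with ICB in 30 of 36, with a median of 0.16 log2 units against -0.01 for all genes. In 7 of 36 all ICB libraries stood above all IgG libraries, against 5.56% of genes, and in 1, Cdk2, all stood below, against 7.3%. The ratio of group means had a median of 1.13 for mitosis genes and 1.11 for replication genes, so the differences were small beside the level.

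Foxm1, the transcription factor of the mitosis genes, was at 9.33, 10.8 and 10.9 FPKM in the tumor IgG libraries and at 12.2, 15.2 and 12.9 with ICB (0.35 ± 0.12, adjusted p = 0.697). Mki67 was at 32.8, 33.8 and 38.5 with IgG and at 41.2, 42.9 and 44.4 with ICB (0.29 ± 0.10, adjusted p = 0.697). Aurka was at 23.9, 25.9 and 23.7 with IgG and 27.9, 38.2 and 28.2 with ICB (0.34 ± 0.14, adjusted p = 0.707). In these 3 the ICB libraries all lay above, with the second ICB library highest for Foxm1 and Aurka. Tpx2 did not overlap either, at 31.8 to 34.4 against 35.3 to 37.2 FPKM. Kif20a, a kinesin of cytokinesis, was at 12.6, 12.4 and 14.8 with IgG and 14.7, 17.4 and 16.0 with ICB and overlapped narrowly, as did Top2a at 45.9, 49.9 and 57.1 against 55.9, 58.9 and 64.7.

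Of the tumor replication genes Mcm5, Mcm7 and Ccne2 did not overlap. Mcm5 was at 37.4, 48.0 and 46.1 FPKM with IgG and at 54.5, 61.7 and 49.1 with ICB (0.32 ± 0.14, adjusted p = 0.707). Mcm7 was at 24.2, 28.7 and 28.4 with IgG and 31.9, 37.1 and 29.8 with ICB (0.27 ± 0.12). Ccne2 was at 5.93, 6.76 and 7.57 with IgG and 7.89, 8.25 and 7.63 with ICB (0.21 ± 0.11). Cdk2 went the other way, at 17.8, 18.5 and 21.9 with IgG and 16.2, 17.3 and 17.3 with ICB (-0.18 ± 0.11, adjusted p = 0.778). Tyms was at 2.48, 4.001 and 4.53 with IgG and 4.28, 5.26 and 4.47 with ICB (0.30 ± 0.18), and the first IgG library alone was low. Pcna overlapped, at 66.5, 86.7 and 72.1 against 68.3, 85.0 and 68.1 FPKM.

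The second tumor ICB library was the highest of the 6 in 24 of 36 members, against 20.6% of genes. Without it the median of the members was 0.095 log2 units. Summed macrophage markers were 254 to 707 FPKM with IgG and 299 to 462 with ICB and overlapped. The skeletal muscle markers reached 320 FPKM in the same second ICB library and at most 9.80 in the IgG libraries, and their part in the member values was not tested. Of the wider lists in tumor, Ccnd1 was at 0.58 ± 0.19 (adjusted p = 0.697), Ccnd2 at 0.34 ± 0.13, Myc at 0.37 ± 0.20, Cdkn1a at 0.37 ± 0.21, Cdkn2a at 0.11 ± 0.16, Tk1 at 0.01 ± 0.17 and Pttg1 at -0.20 ± 0.14. The pocket protein genes Rbl1 and Rbl2 were at -0.24 ± 0.10 and -0.33 ± 0.14, and 0 of the genes in the wider lists passed.

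The difference between lung and tumor in the ICB effect was tested in the fit of all 36 libraries. It passed for 0 of 35 members and for 0.211% of 16123 genes. Ccnb2 had the smallest unadjusted p, 0.0397 by limma, with a difference of 0.94 ± 0.44 log2 units (adjusted p = 0.882), and was the 1 member under 0.05. The median over members was 0.14, so a larger response of the members in lung than in tumor was not shown. The scale of this test understates the change of low genes, and the members were far lower in lung than in tumor. As ratios of group means the medians were 2.03 in lung and 1.13 in tumor for mitosis genes, and 1.31 and 1.11 for replication genes. The difference between these ratios was not tested.

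**Figure D4:**
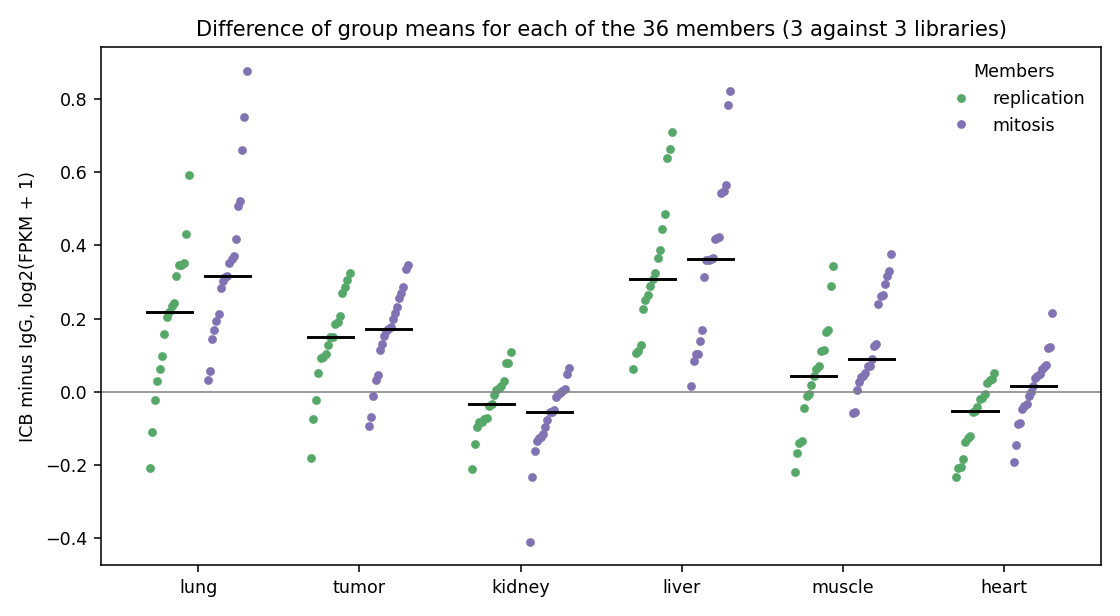
ICB minus IgG difference of group means in log2(FPKM + 1) for each of the 17 replication (green) and 19 mitosis (purple) members in 6 tissues, with black lines at the medians. Points lie mostly above 0 in lung, tumor and liver, and on both sides of 0 in kidney, muscle and heart.

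In liver all 36 members had a higher ICB mean, with a median of 0.36 log2 units against -0.02 for all genes, and 1 library carried most of it. The third ICB library was the highest of the 6 in 34 of 36 members, where it was highest in 17.5% of genes. Its values were a median of 9.74 times the median of the other 5 libraries for mitosis genes and 2.65 times for replication genes, against 0.979 for all genes. Without that library 22 of 36 members had a higher ICB mean and the median was 0.06. The groups did not overlap in 4 members (Ccnb1, Foxm1, Mki67 and Cdt1), against 4.06% of genes, and in 0 the ICB libraries were all lower, against 3.34%. No member passed among 11257 genes, of which 0 (0%) passed, 379 had an unadjusted p under 0.05, and limma-voom called 0. Of the members 1 had an unadjusted p under 0.05 by limma and 3 by limma-voom, beside 3.37% and 3.41% of genes.

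**Figure D5:**
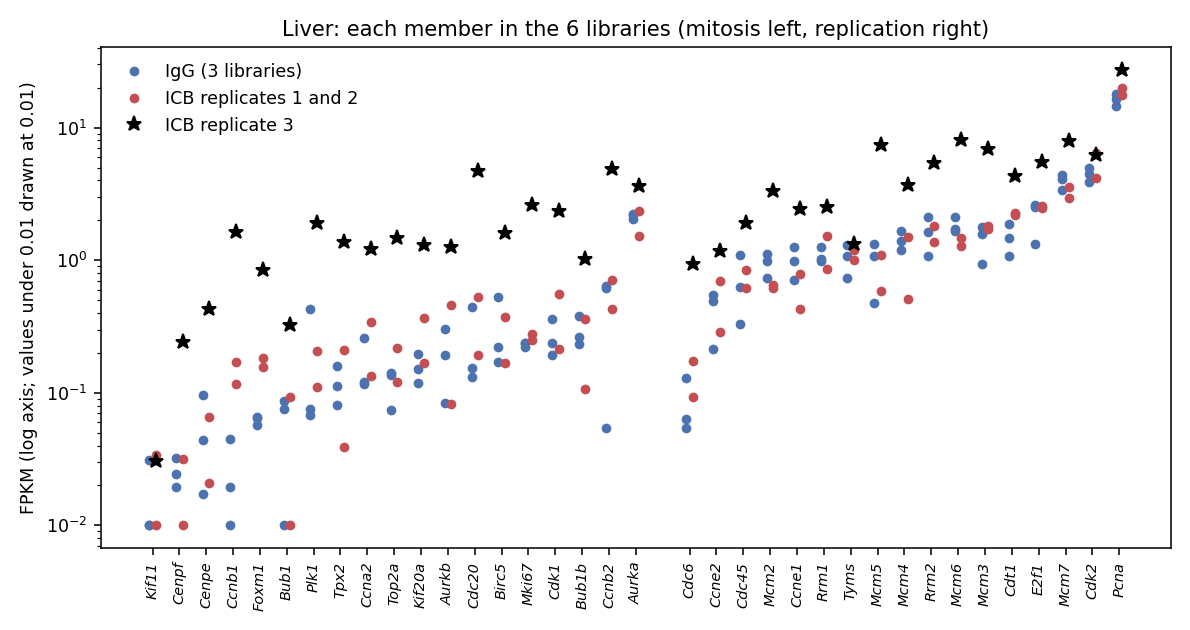
FPKM of each member in the 6 liver libraries on a log axis, with IgG in blue, ICB replicates 1 and 2 in red and ICB replicate 3 as black stars. The star lies above the other 5 libraries in 34 of 36 members, by more for mitosis genes (left) than for replication genes (right).

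Mki67 in liver was at 0.236, 0.238 and 0.221 FPKM with IgG and at 0.279, 0.251 and 2.60 with ICB. Cdc20 was at 0.153, 0.441 and 0.132 with IgG and at 0.194, 0.523 and 4.71 with ICB. Ccnb2 was at 0.62, 0.636 and 0.0538 with IgG and 0.711, 0.426 and 4.83 with ICB. In these 3 genes the first and second ICB libraries lay beside the IgG libraries. Mcm5 was at 0.476, 1.33 and 1.07 with IgG and 0.59, 1.10 and 7.45 with ICB, and Mcm6 at 1.67, 2.13 and 1.71 against 1.28, 1.47 and 8.01. Cdt1 was at 1.48, 1.86 and 1.08 with IgG and at 2.20, 2.28 and 4.29 with ICB (0.64 ± 0.24, adjusted p = 0.999), so here all 3 ICB libraries lay above. Cdk2, at 6.27 FPKM in the third library and 6.40 in the second, and Kif11 were the 2 members whose highest value was in another library. The summed mitosis genes were 32.7 FPKM in this library and 4.27 to 6.07 in the other 5, and the replication genes 96.1 against 36.6 to 45.3.

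The same liver library held 1302 FPKM of macrophage and monocyte markers, 71.7 of immature myeloid markers, 59.4 of neutrophil markers, 9.41 of B cell and plasma cell markers and 8.24 of T cell markers, each the highest of the 6. The first ICB library held 1170 FPKM of macrophage markers, and its mitosis genes summed to 6.07 FPKM. Hepatocyte markers did not set the library apart, at 66443 FPKM beside 62193 to 80751. The part of these cells in the member values was not tested.

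The title of that library carries a number that also stands in the titles of the second lung, tumor, muscle and heart ICB libraries. The labels do not say what the number means. The lung library of this number had the highest mitosis sum of the lung libraries, at 25.4 FPKM, and the highest value of the 6 in 18 of 36 members, where it was highest in 11.9% of genes. The tumor library of this number had the highest mitosis sum of the tumor libraries, at 504 FPKM. In muscle it was the highest in 1 of 36 members, beside 10.6% of genes, and in heart in 7 of 36, beside 15.7%. This pattern was noticed after the values were seen.

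In muscle 27 of 36 members had a higher ICB mean, with a median of 0.07 log2 units and 0.02 without the third ICB library. No member passed among 11410 genes (0% passed, 608 had an unadjusted p under 0.05, and limma-voom called 0), and 0 members had an unadjusted p under 0.05 by either tool. In 3 members the ICB libraries were all higher (6.39% of genes) and in 2, Ccne1 and Cdc6, all lower (4.88%). Mki67 was at 0.129, 0.088 and 0.118 FPKM with IgG and 0.138, 0.197 and 0.999 with ICB. Ccna2 was at 0.0128, 0.0465 and 0.0873 with IgG and 0.101, 0.264 and 0.601 with ICB. The Ccna2 values with IgG rest on 1, 3 and 6 reads. In both genes the third ICB library was the highest, as it was in 19 of 36 members, beside 14.1% of genes. The summed mitosis genes did not overlap, at 4.58, 3.62 and 5.92 FPKM with IgG and 6.61, 6.51 and 9.37 with ICB, and neither did the fat cell markers (230 to 623 against 167 to 229) nor the erythroid markers (979 to 1520 against 284 to 877), both lower with ICB. The fibroblast markers were higher in mean in 6 of 6, 5 without overlap (median 1.08 log2 units), though their sums overlapped at 267 to 491 against 438 to 556 FPKM. The macrophage and monocyte markers were higher in 10 of 10 (median 0.85), with sums of 94.3 to 218 against 150 to 414 FPKM. The part of these cells in the member values was not tested.

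In kidney 11 of 36 members had a higher ICB mean and the median was -0.05 log2 units, or 0.002 on the TPM scale. No member passed. Of 11901 genes 2 passed (0.0168%), 441 had an unadjusted p under 0.05, and limma-voom called 1. In 0 members the ICB libraries were all higher (4.78% of genes), and in 2, Cdc20 and Aurkb, all lower (5.01%). Cdc20 was at 1.18, 2.34 and 1.17 FPKM with IgG and at 0.759, 0.939 and 0.978 with ICB (-0.41 ± 0.18, adjusted p = 0.992), and it was the member with an unadjusted p under 0.05 by limma. By limma-voom that member was Aurkb. Aurkb, the kinase of the chromosomal passenger complex, was at 0.402, 0.371 and 0.464 with IgG and 0.074, 0.228 and 0.318 with ICB. The second IgG library was the highest of the 6 in 20 members, against 28.0% of genes. Macrophage and T cell marker sums were higher in every ICB kidney library (66.6 to 132 against 55.3 to 59.3 FPKM, and 3.64 to 4.60 against 1.88 to 2.93). Their part in the member values was not tested.

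In heart 15 of 36 members had a higher ICB mean and the median was -0.02 log2 units, or 0.008 on the TPM scale. No member passed among 11476 genes (0% passed, 521 had an unadjusted p under 0.05, and limma-voom called 0). Of the members 0 had an unadjusted p under 0.05 by limma and 2 by limma-voom, beside 4.54% and 4.49% of genes. In 1, Ccnb2, the ICB libraries were all higher (4.77% of genes). Its values rest on 11, 11 and 11 reads with IgG and 11, 12 and 12 with ICB. In 4 they were all lower (4.93%), and these were replication genes, Cdc45, Mcm2, Mcm3 and Tyms. Mcm2 was at 1.07, 1.17 and 1.39 FPKM with IgG and at 0.932, 0.987 and 0.727 with ICB (-0.23 ± 0.11, adjusted p = 0.997), the opposite order to lung. Erythroid marker sums were lower in every ICB heart library (416 to 552 against 752 to 3890 FPKM), and their part was not tested.

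Of the 36 genes 16 overlap another annotated gene in GENCODE M21 on build GRCm38, and whether the counting used strand is not given in the sources used here, so reads of such neighbours cannot be told apart. The overlaps touch Mcm7 (chromosome 5, 138164583 to 138172422, minus strand), whose ends overlap Cops6 and Ap4m1 on the other strand and which holds the microRNA genes Mir25, Mir93 and Mir106b. They also touch Ccna2 with Exosc9, Cdc20 with Elovl1, Cdc45 with Ufd1, Cdk2 with Pmel, Ccne2 with Ints8, Kif20a with Cdc23 and Cenpf with Gm37239. Processed copies named after Pcna, Tyms, Ccnb1 and Ccnb2 exist in the annotation and could take or give reads.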

How the data were processed

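Total RNA was extracted with TRIzol from flash-frozen tissue and sequenced after Illumina TruSeq library preparation, per the labels' protocols. The authors deposited 1 table of FPKM values for 36 libraries. HISAT2 2.1.0, the mm10 build and edgeR are named in the submitters' processing notes. For the counting program, the annotation and strand use, nothing is given in the sources used here. Of 18781 rows, 15 without a name and 3 symbols on more than 1 row were left out, so 18760 remained. Within each gene the FPKM steps gave whole reads for 18781 of 18781 rows (100%, tolerance 0.001), 19005189 to 25512980 per library. The library size that the deposited FPKM values imply was 0.532 to 1.596 times these sums. No within-group pair of 36 was a duplicate.

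The main test was limma 3.58.1 (R 4.3.3) on log2(FPKM + 1), a scale that understates the change of low genes, over genes with at least 1 FPKM in 3 libraries, with Benjamini-Hochberg adjustment over all of them and a threshold of 0.05. In the fit of all libraries those 3 had to be of 1 tissue. ICB was compared with IgG within each tissue, and tissues in 1 fit of all libraries. limma-voom on the recovered reads (mean of at least 5) called 0 genes in 5 tissues and 1 in kidney. Medians of members cover all 36, and tested genes form the background. The scripts were tested on simulated data. By rule all members could be named, with full values for the 5 smallest unadjusted p in lung and in tumor per list and the 3 highest and 3 lowest tumor levels. From each wider pathway list up to 4 genes with the smallest unadjusted p in lung, tumor or tumor against organs were named, and Cdkn1a, Cdkn2a, Ccnd1, Myc, Tk1 and Pttg1 always. Other values were named after they were seen. The members and lists were chosen with earlier results of these data known. Replicates were numbered in accession order within a group. The number in a title recurs across tissues but is not explained, so it was used as a block only in an alternative (correlation 0.106). Figures and tables were made with Python 3.11.15. Alternatives were a pseudocount of 0.1, no filter, other scalings, and each library left out.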

Additional observations from a re-analysis of the deposited data

Results flagged for a closer look

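In 6 members every ICB library lay above every IgG library in lung and below every IgG library in another tissue. That is 6 of the 22 that lay above in lung (27.3%), beside 124 of the 803 genes that did so (15.4%, over genes with a mean of at least 5 reads). Differences here are ICB minus IgG in log2(FPKM + 1). Cdc20 was at 0.364 in lung and -0.409 in kidney, and Aurkb at 0.418 in lung and -0.232 in kidney. Mcm2 was at 0.347 in lung and -0.232 in heart, and Cdc45 at 0.234 in lung and -0.209 in heart. Ccne1 was at 0.345 in lung and -0.167 in muscle, and Cdc6 at 0.159 in lung and -0.14 in muscle. The difference between tissues was not tested in these 6. Ccne1 and Cdc6 in muscle rest on 4 to 22 reads per library, and for Ccne1 the lowest IgG and the highest ICB library both had 14. On the TPM scale the members with all ICB libraries lower numbered 1 in muscle, where 2 are reported, and 3 in heart, where 4 are reported. Which members were lost is not given here.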

How the results depend on the processing

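Of 616 recomputed values 584 stayed near the reported value and 32 moved further. No called value changed sign, but 9 medians near 0 did: ICB in kidney (0.002 on the TPM scale, 0.014 without IgG replicate 2) and heart (0.008 and 0.018 likewise), kidney against organs (0.012 with a pseudocount of 0.1, 0.003 without ICB replicate 1) and liver against organs (0.018 to 0.066 without IgG replicate 1, ICB replicate 1 or ICB replicate 2). Of these, 309 left out 1 library, of which 12 moved. With a pseudocount of 0.1 the median over members was 0.558 in lung and 0.194 in muscle for ICB minus IgG, 4.95 for tumor against organs, 0.81 for lung, -0.681 for muscle and -0.441 for heart against the other organs, and 0.426 for lung minus tumor. A smaller pseudocount weighs low genes more. With limma-voom the ICB medians were 0.662 in lung, 0.852 in liver and 0.293 in muscle. On the TPM scale the medians were 4.54 for tumor, 0.834 for lung and -0.333 for liver against organs and 0.384 for lung minus tumor, and the members called were 25 in liver and 32 in heart. Without 1 library the count called was 12 to 23 in liver (15 reported, 23 without ICB replicate 3) and 9 to 22 in heart (16 reported, 9 without IgG replicate 1, 10 without IgG replicate 3 or ICB replicate 3). The members with all ICB libraries above all IgG libraries then ranged from 7 to 15 in tumor, 4 to 14 in liver and 3 to 9 in muscle, where fewer libraries separate more easily. The share of all genes that did so then ran from 7.9% to 16.1% in tumor, 6.14% to 14.9% in liver and 9.99% to 16% in muscle. Without Top2a and Pcna the ratio of mitosis to replication FPKM was 0.3103 in lung IgG, 0.4874 in lung ICB and 0.2045 in liver IgG. The shorter E2F core stood in 28 members, against 8 for the full letters. With the title number as a replicate block the members called were 35 for tumor, 23 for lung, 11 for kidney, 15 for liver, 28 for muscle (24 reported) and 22 for heart (16 reported), and 0 for lung minus tumor. No share of all genes is given beside the counts called under these alternatives, so they only show how far the counts moved. The counts after leaving out a library and limma-voom were chosen after seeing the data. Where no cause is named, it was not tested.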
